A study of Homo sapiens with 6 samples.

Results

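Kinesins are motor proteins that use ATP to walk along microtubules or to take microtubule ends apart. One branch of the family builds and drives the spindle, separates chromosomes and completes cytokinesis, and its transcripts accumulate in cells approaching division. A second branch carries vesicles, organelles, RNA and ciliary cargo between mitoses, and is best known from the long axons of neurons. Kinesin genes were taken as the symbols that start with KIF and a number, plus KIFC1 to KIFC3, which gave 44 of the 24462 symbols counted. Of these, 42 were motor genes and 2 were antisense transcripts named after a motor gene (KIF9-AS1 and KIF25-AS1). The motor genes were divided by textbook role into 15 mitotic, 15 transport and 12 other kinesins, with earlier results of these data known. Of the 42 motor genes, 32 had enough counts to be tested, namely 14 mitotic, 12 transport and 6 other kinesins.

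The libraries came from H460, an established human large-cell lung cancer line. In the depleted group, 3 libraries were made from cells held for 24 h in medium without glutamine, with 10% dialyzed serum. The replete group of 3 libraries came from cells with glutamine, and the labels do not say whether their serum was dialyzed during that time, so serum and glutamine cannot be told apart. Each library sampled the polyadenylated 3′ ends of transcripts, so counts were not divided by transcript length, and the order of levels between genes is not read. Sums over a class and ratios between genes are compared only across libraries.

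Depth ran from 8667798 to 10914899 counts in depleted libraries and from 7550849 to 9028230 in replete libraries. Levels are given as CPM, the count scaled to the library total, and a gene with 0 counts could still have been present at up to 0.275 to 0.397 CPM, counting error only. Depleted replicate 2 differed most from the other libraries of its group (chi-square per degree of freedom 19.4 and 11.7, against 1.51 to 3.92 for the other pairs within a group). Nothing in the labels states that a group came from separate cultures. The p-values therefore reflect variation among these libraries, which may be technical. Of 5 epithelial markers, the keratins KRT8, KRT18 and KRT19 were well counted, while EPCAM and CDH1 stayed at or under 0.505 CPM in every library. The epithelial list summed to 761 to 881 CPM in depleted and 2067 to 2092 CPM in replete libraries. Endothelial markers summed to at most 0.665 CPM and blood markers to at most 4.17 CPM in any library. Fibroblast markers summed to 38.8 to 115 CPM in depleted and 28.5 to 41.8 CPM in replete libraries, highest in depleted replicate 3. Of the endothelial markers, CDH5 and VWF were at 0 in every library and PECAM1 had at most 1 count. KDR had 0 counts in each depleted library, against 6, 3 and 5 counts in replete libraries. The 5 neuronal markers did not move together, with SYT1 and SNAP25 higher (log2 fold change 2.16 and 1.26) and NEFL and MAP2 lower (−2.60 and −1.26) in depleted cells. They summed to 146 to 171 CPM in depleted and 188 to 204 CPM in replete libraries, with 4 of 5 at 1 CPM or more throughout. The part of such cells or programs in the kinesin results was not tested. In bulk RNA, fewer dividing cells and less mitotic RNA per cell cannot be told apart.

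Promoters are shown first, because most mitotic kinesins shared a feature there that was not used to define the class. Many genes that peak before division carry a cell cycle homology region (CHR, core TTTGAA or TTCGAA) near their start, often downstream of a CCAAT box, and are known targets of the MuvB complexes, which repress them when p53 and p21 are active. E2F sites serve the earlier wave of genes. RefSeq promoter windows on GRCh38.p14, from 250 bases before to 50 bases after an annotated start, were found for 28 of the 32 tested kinesins and not for KIF13B, KIF27, KIFC2 and KIFC3. The stretches below run from 90 bases before to 10 bases after the start, 5′ to 3′ on the strand of the gene, with matches on either strand in capitals (TTTGAA or TTCGAA for the CHR, CCAAT, and TTTGGCGC for E2F, or their reverse complements). They show 6 mitotic kinesins that fell, then KIF18A, which rose, and KIF3A, a transport kinesin that fell and has no match in its window. These examples were picked by hand, and all 6 hold a CHR core. KIF20A and KIF2C, mitotic kinesins that fell and have no CHR core, are not shown.
KIF14 (chr1:200620742-200620841, minus strand): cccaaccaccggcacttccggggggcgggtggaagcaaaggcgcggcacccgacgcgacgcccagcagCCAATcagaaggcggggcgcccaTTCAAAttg
KIF18B (chr17:44947764-44947863, minus strand): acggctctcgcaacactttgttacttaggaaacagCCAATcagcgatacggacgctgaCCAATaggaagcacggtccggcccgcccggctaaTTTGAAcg
KIF23 (chr15:69414259-69414358, plus strand): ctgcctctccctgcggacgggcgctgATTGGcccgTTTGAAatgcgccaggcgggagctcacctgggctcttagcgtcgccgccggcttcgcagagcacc
KIF22 (chr16:29790661-29790760, plus strand): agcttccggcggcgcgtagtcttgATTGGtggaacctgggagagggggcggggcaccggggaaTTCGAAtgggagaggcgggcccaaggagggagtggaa
KIF15 (chr3:44761704-44761803, plus strand): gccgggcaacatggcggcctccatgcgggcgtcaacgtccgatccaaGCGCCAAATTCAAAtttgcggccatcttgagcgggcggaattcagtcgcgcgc
KIF11 (chr10:92593040-92593139, plus strand): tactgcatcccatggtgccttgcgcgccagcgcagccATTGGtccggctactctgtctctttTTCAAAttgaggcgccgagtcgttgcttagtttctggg
KIF18A (chr11:28108147-28108246, minus strand): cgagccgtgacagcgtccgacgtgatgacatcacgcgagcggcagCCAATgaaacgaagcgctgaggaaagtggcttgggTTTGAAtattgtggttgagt
KIF3A (chr5:132737537-132737636, minus strand): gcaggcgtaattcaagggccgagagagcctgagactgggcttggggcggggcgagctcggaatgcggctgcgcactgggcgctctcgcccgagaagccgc

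A CHR core lay in the promoter windows of 11 of 14 tested mitotic kinesins, against 1 of 9 transport and 1 of 5 other kinesins with a window, and 19.5% of all 27305 genes in the promoter table. All of those 11 mitotic kinesins had a match from 60 bases before to 40 bases after the start, as did 0 transport kinesins and 1 other kinesin, KIF24, and 6.50% of all genes. These limits of −60 and 40 were set after the positions were seen. The 11 mitotic kinesins include KIF4A and its retrogene copy KIF4B. The motif CCAAT was present in 11 mitotic kinesins and in 39.7% of all genes, and both motifs were present in 10 mitotic kinesins and in 7.85% of all genes. An E2F match, searched as TTTCCCGC, TTTGGCGC, TTTCGCGC or TTTGCCGC, was found in KIF15 alone of the tested kinesins, where it abuts the CHR core, and in 3.99% of all genes. The motif did not sort the mitotic kinesins by direction. A CHR core was present in 9 of the 11 that fell (not in KIF20A or KIF2C) and in both that rose, KIF18A and KIF20B. A match describes letters in a window and not a bound site.

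**Figure D1:**
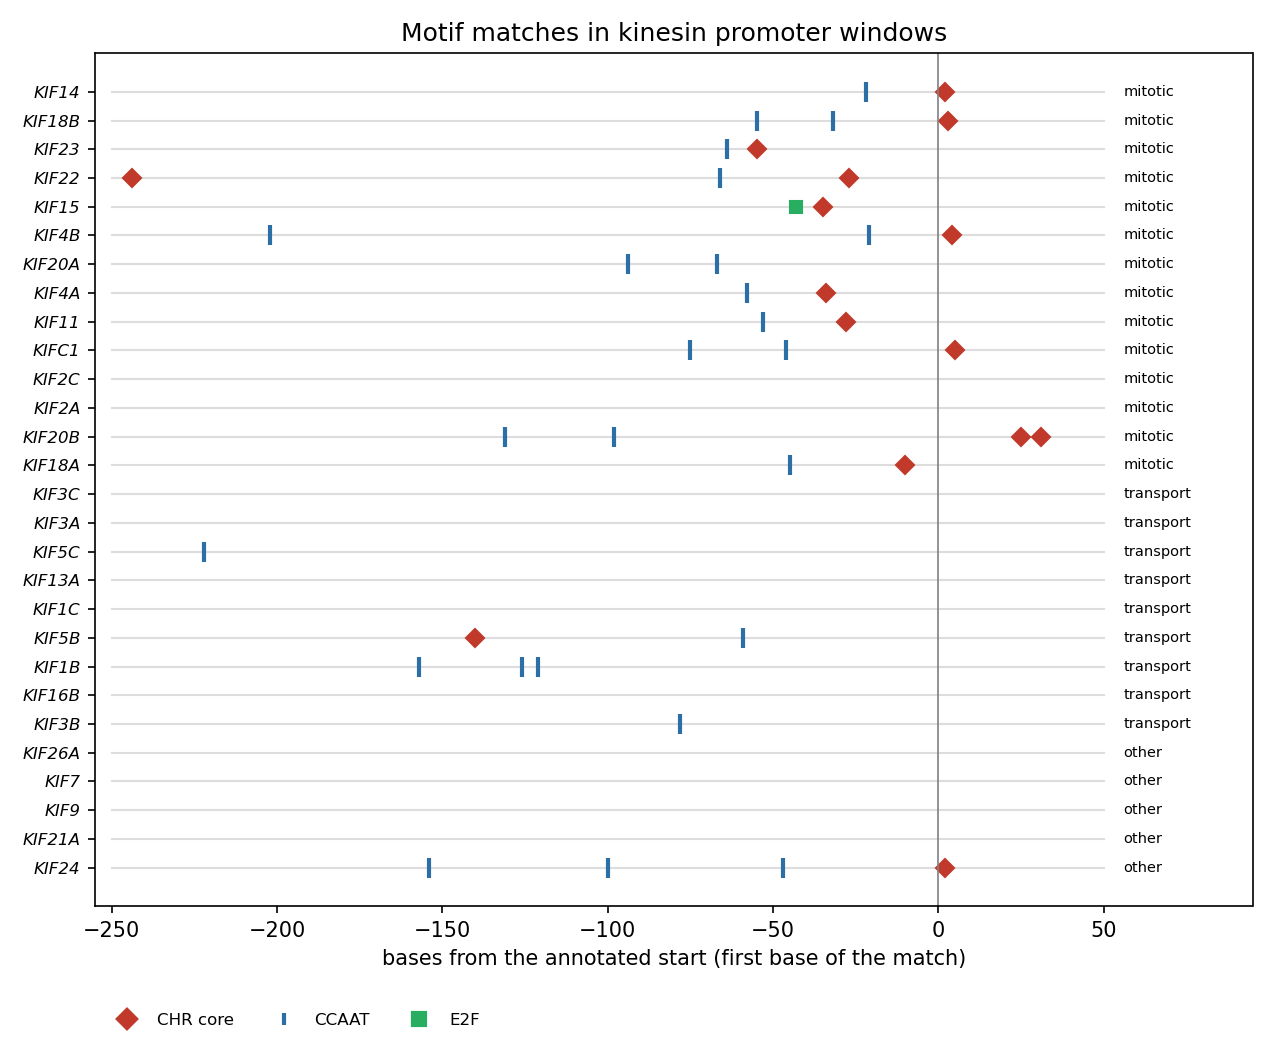
Positions of CHR core (red diamonds), CCAAT (blue bars) and E2F (green square) matches on either strand, in bases from the annotated start, in the RefSeq promoter windows of the 28 tested kinesins with one, all windows of a gene on one line, ordered by class and then by log2 fold change. Each of 11 mitotic kinesins has a CHR core around the start, and KIF22 has a match drawn also at −244, in its second window. The CHR core of KIF5B, a transport kinesin, sits 140 bases before the start.

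Mitotic kinesins mostly fell without glutamine, while transport kinesins were divided. Of 14 tested mitotic kinesins, 11 fell, 2 rose and 1 did not pass, with a median log2 fold change (depleted over replete) of −0.89. KIF4B, which may hold reads of its near-identical relative KIF4A, is among the 11 that fell and the 6 below that fell by more than 2-fold. Of 12 tested transport kinesins, 5 fell, 2 rose and 5 did not pass, with a median of −0.11. Over all 12739 genes tested the median was −0.02, 78.6% were called at an adjusted p under 0.05 (quasi-likelihood test, edgeR), 39.4% as lower and 39.1% as higher in depleted cells. Among the other kinesins, 3 of 6 fell, 2 rose and 1 did not pass. By more than 2-fold, 6 mitotic and 3 transport kinesins fell and 1 and 0 rose, where 45.4% of all genes changed by that much, 23.7% lower and 21.8% higher. The difference between the classes was described and not tested, since members of a class are not replicates. KIF3C and KIF5C passed the count filter through their replete libraries and KIF27 through its depleted ones, so these members could be tested only in the direction in which they differed. Without KIF3C and KIF5C, 3 of 10 tested transport kinesins fell, 1 of them by more than 2-fold (KIF3A), and 2 rose.

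Summed over the class, mitotic kinesins took 369, 331 and 361 CPM in the depleted libraries, against 675, 675 and 657 CPM in the replete libraries, a ratio of 0.529 between the group means. Transport kinesins took 979, 1044 and 961 CPM in the depleted libraries, against 1010.5, 985 and 1014 CPM in the replete libraries, a ratio of 0.992. The depleted and replete sums overlap for the transport class and are well apart for the mitotic class. The overlap rested on KIFC3. Without it the transport sums were 621, 653 and 643 CPM in depleted libraries, against 791, 772 and 801 CPM in replete libraries, a ratio of 0.811. CPM uses library totals, whereas fold changes use trimmed-mean (TMM) factors, and scaling by library totals alone would lower the median gene by a log2 change of −0.23.

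**Figure D2:**
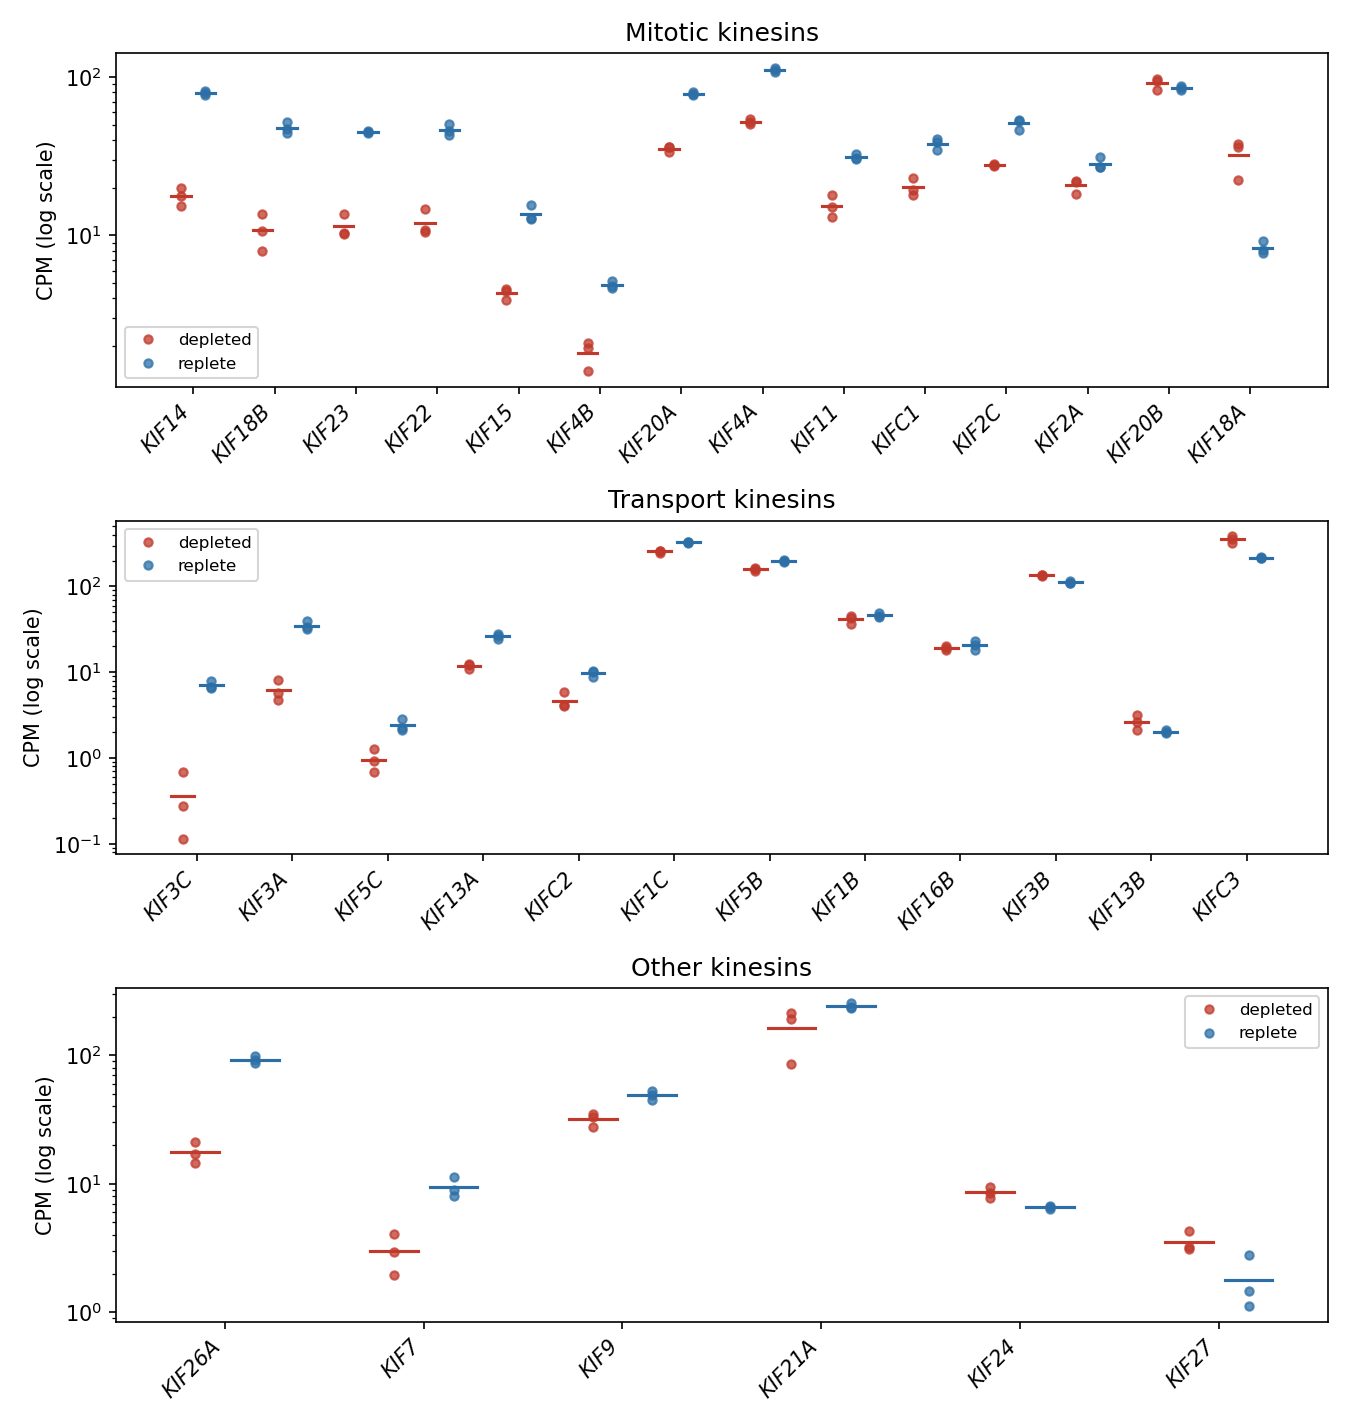
Level of each tested kinesin in CPM (log scale) in the 3 depleted (red) and 3 replete (blue) libraries, with points for libraries and bars for group means, ordered within a class by log2 fold change. Most mitotic kinesins lie lower in depleted libraries, and KIF18A at the right lies higher.

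The largest falls among mitotic kinesins, apart from the uncertain KIF4B, were in KIF14, KIF18B, KIF23, KIF22 and KIF15. KIF14, which recruits citron kinase to the midbody, had 17.7, 15.3 and 20.1 CPM in depleted cells, against 78.9, 81.8 and 77.3 CPM in replete cells (log2 fold change −1.94, SE 0.11, edgeR adjusted p = 2.62e-09). All 3 depleted libraries lay far below all 3 replete libraries. KIF18B, which shortens astral microtubules together with KIF2C, had 13.7, 8.02 and 10.6 CPM in depleted cells, against 51.7, 44.3 and 47.0 CPM in replete cells (log2 fold change −1.90, SE 0.16, adjusted p = 1.32e-07). KIF23, the motor of centralspindlin, which bundles midzone microtubules and positions the cleavage furrow, had 13.7, 10.4 and 10.2 CPM in depleted cells, against 45.9, 44.96 and 44.4 CPM in replete cells (log2 fold change −1.74, SE 0.13, adjusted p = 4.06e-08). The depleted and replete values of these genes do not overlap. For KIF22, the chromokinesin Kid that pushes chromosome arms from the poles, depleted libraries held 10.9, 14.7 and 10.5 CPM, against 46.0, 50.6 and 42.9 CPM in replete libraries (log2 fold change −1.73, SE 0.14, adjusted p = 1.04e-07). KIF15, which can hold spindle poles apart when KIF11 is inhibited, was at 3.94, 4.47 and 4.61 CPM in depleted cells, against 12.6, 12.9 and 15.5 CPM in replete cells (log2 fold change −1.43). Across the family, 29 of 32 tested kinesins had CPM ranges that did not overlap between the groups, where the share over all genes was 81.0% (33.2% higher and 47.8% lower in depleted libraries).

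Smaller falls were seen in KIF20A, KIF4A, KIF11, KIFC1 and KIF2C. KIF20A (MKLP2), which moves the chromosomal passenger complex to the midzone, had 33.4, 36.4 and 36.2 CPM in depleted cells, against 80.3, 77.8 and 77.6 CPM in replete cells (log2 fold change −0.93, SE 0.09, adjusted p = 4.63e-07). Its exons overlap those of BRD8 (log2 fold change −0.63) and CDC23 (0.26) on the opposite strand. KIF4A, a chromokinesin that limits the midzone with PRC1, had 54.5, 51.8 and 50.8 CPM in depleted cells, against 107, 112 and 114 CPM in replete cells (log2 fold change −0.86, SE 0.08), and it overlaps PDZD11 on the opposite strand (log2 fold change −0.04). In both genes the replicates of a group were close together and the groups lay apart. KIF4B, the retrogene copy of KIF4A, had 1.38 to 2.11 CPM in depleted and 4.64 to 5.18 CPM in replete cells (log2 fold change −1.18, SE 0.25, edgeR adjusted p = 0.000701). It may hold reads of KIF4A, because the copies are near-identical, and is uncertain. KIF11 (Eg5), which slides spindle poles apart, had 18.0, 13.2 and 15.1 CPM in depleted cells, against 30.8, 32.6 and 30.2 CPM in replete cells (log2 fold change −0.78, SE 0.13, adjusted p = 8.76e-05). KIFC1 (HSET), a minus-end motor that focuses poles and clusters extra centrosomes, had 19.3, 23.1 and 17.9 CPM in depleted cells, against 38.7, 40.8 and 34.4 CPM in replete cells (log2 fold change −0.69, SE 0.12, adjusted p = 0.000196). Depleted values stayed below replete values in each library of both genes. KIF2C (MCAK), a depolymerase that corrects faulty kinetochore attachments, had 27.6, 27.7 and 28.2 CPM in depleted cells, against 52.9, 53.5 and 46.5 CPM in replete cells (log2 fold change −0.65, SE 0.10, adjusted p = 3.93e-05). Its relative KIF2A, a depolymerase at spindle poles that also trims neurites, was the mitotic kinesin that did not pass, at 21.9, 18.2 and 22.2 CPM in depleted cells, against 31.3, 26.9 and 27.02 CPM in replete cells (log2 fold change −0.23, SE 0.12, adjusted p = 0.0999). KIF2A passed with library totals alone, at −0.45 (adjusted p = 0.00401), and with a filter of a mean of at least 10 CPM, at −0.33 (adjusted p = 0.0229).

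KIF18A rose against its class. This motor sits at the plus ends of kinetochore microtubules and dampens the oscillations of chromosomes at the metaphase plate. It had 37.7, 22.3 and 36.2 CPM in depleted cells, against 7.75, 9.22 and 8.08 CPM in replete cells (log2 fold change 2.17, SE 0.20, edgeR adjusted p = 6.67e-07). The lowest depleted library, replicate 2, was still above every replete library. In the GENCODE 29 annotation KIF18A shares 61 exon bases with METTL15 on the opposite strand, and METTL15 also rose, at a log2 fold change of 1.33 (adjusted p = 1.87e-08). Since use of strand in the counting is not given in the sources used here, reads that fall in the shared bases may be mixed. Whether these bases lie near the 3′ ends that the libraries sampled was not checked. KIF20B (MPP1), a motor of late cytokinesis, had 94.5, 83.3 and 97.5 CPM in depleted cells, against 85.6, 82.7 and 87.8 CPM in replete cells. Its CPM ranges overlap, and it passed as higher relative to the TMM scaling (log2 fold change 0.33, SE 0.08, adjusted p = 0.00271) but not under library totals alone (0.10, adjusted p = 0.272).

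**Figure D3:**
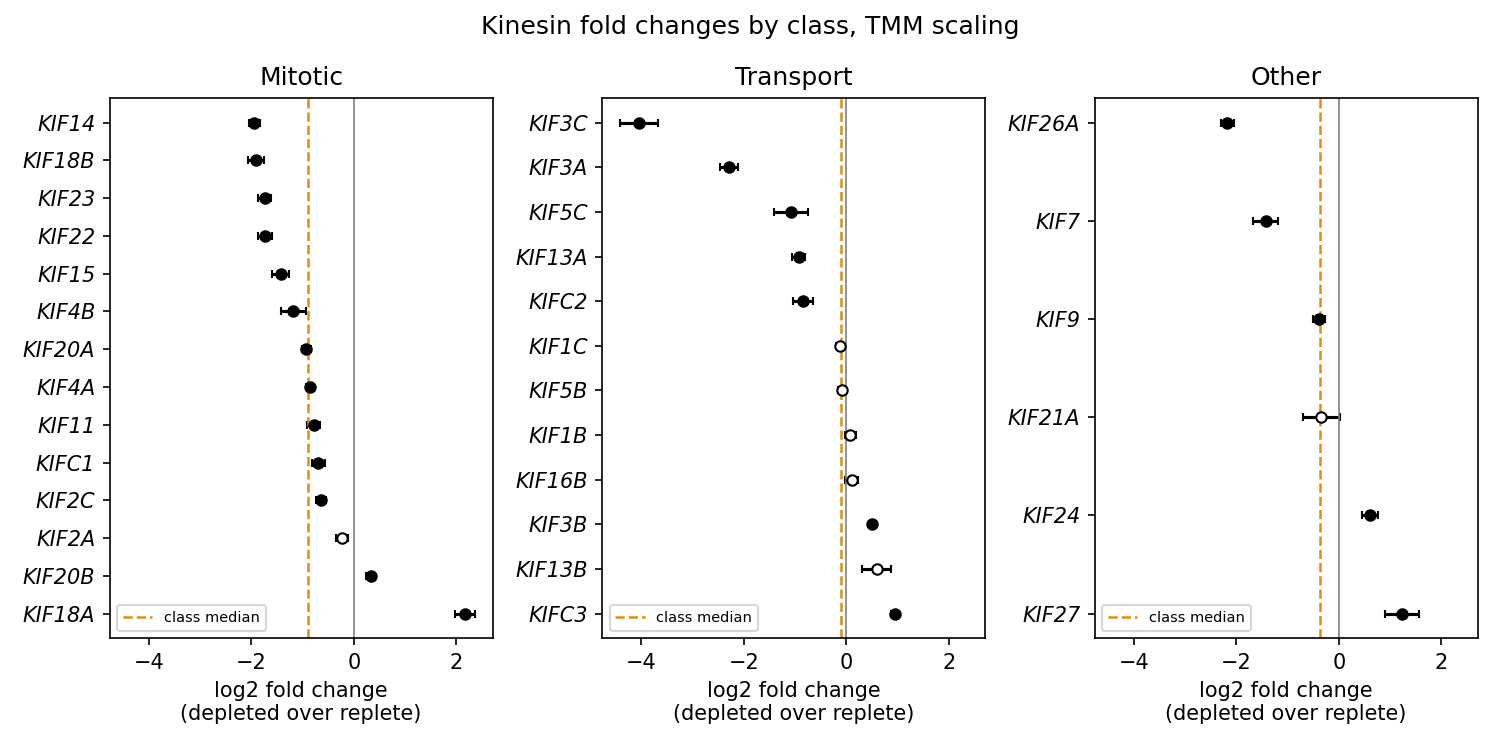
Log2 fold change (depleted over replete, TMM scaling) with its standard error for each tested kinesin, filled where the adjusted p was under 0.05 and open where it was not, with the class median as a dashed line. The medians are −0.89 for mitotic, −0.11 for transport and −0.36 for other kinesins.

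The 5 tested transport kinesins that did not pass were KIF5B, KIF1C, KIF1B, KIF16B and KIF13B, which are grouped here by that outcome. KIF5B, the ubiquitous heavy chain of conventional kinesin, had 153, 161 and 162 CPM in depleted cells, against 198, 193 and 202 CPM in replete cells (log2 fold change −0.09, SE 0.07, edgeR adjusted p = 0.254). KIF1C, a carrier of dense-core vesicles and integrins, had 246, 262 and 260.3 CPM in depleted cells, against 331, 320.1 and 331 CPM in replete cells (log2 fold change −0.13, SE 0.07, adjusted p = 0.0873). In CPM both genes were lower in every depleted library. They did not pass relative to the TMM scaling but passed with library totals alone, at −0.32 for KIF5B (adjusted p = 0.000818) and −0.36 for KIF1C (adjusted p = 0.000180), and KIF1C passed also without depleted replicate 2 (−0.14, adjusted p = 0.00911). With a filter of a mean of at least 10 CPM both passed too, at −0.19 for KIF5B (adjusted p = 0.0234) and −0.23 for KIF1C (adjusted p = 0.00669). KIF1B, which carries mitochondria and synaptic vesicle precursors, had 43.2, 45.01 and 36.9 CPM in depleted cells, against 44.5, 45.5 and 48.7 CPM in replete cells (log2 fold change 0.08, SE 0.10, adjusted p = 0.488). KIF16B, a motor of early endosomes, had 18.0, 19.1 and 20.4 CPM in depleted cells, against 23.4, 18.1 and 20.9 CPM in replete cells (log2 fold change 0.11, SE 0.13, adjusted p = 0.465). The ranges of both overlap between the groups, and the sign of both turns negative under library totals alone. KIF13B, at 2.11 to 3.21 CPM in depleted and 1.99 to 2.10 CPM in replete cells, had a log2 fold change of 0.59 (SE 0.28, adjusted p = 0.0664), and 0.76 without depleted replicate 1 (adjusted p = 0.0366).

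Of the 3 motor subunit genes of heterodimeric kinesin-2, known from intraflagellar transport, KIF3A and KIF3C fell and KIF3B rose. KIF3A, the subunit common to the forms of this motor, had 5.68, 4.70 and 8.08 CPM in depleted cells, against 33.7, 31.6 and 39.6 CPM in replete cells (log2 fold change −2.28, SE 0.18, edgeR adjusted p = 6.90e-08). KIF3C, an alternative partner of KIF3A that is abundant in neurons, had 3, 1 and 6 counts in depleted libraries, against 59, 54 and 60 counts in replete libraries (log2 fold change −4.05, SE 0.37, adjusted p = 3.82e-07). This was the largest fall among the tested kinesins, but KIF3C passed the count filter only through its replete libraries. It could therefore be tested only as a fall. With so few depleted counts, its log2 fold change ran from −4.80 to −3.68 over the main fit and the alternatives. KIF3B, the usual partner of KIF3A, had 136, 138 and 133 CPM in depleted cells, against 109.5, 115 and 111 CPM in replete cells (log2 fold change 0.51, SE 0.07, adjusted p = 2.62e-05). All depleted libraries were above all replete libraries for KIF3B and below them for KIF3A and KIF3C. KIFAP3, the third, non-motor subunit that links this motor to cargo, had a log2 fold change of −0.32 (SE 0.14, adjusted p = 0.0555).

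Minus-end and endosomal transport motors also differed in direction. KIFC3, a minus-end motor of the Golgi and of adherens junctions, had 358, 391 and 319 CPM in depleted cells, against 219.8, 213 and 212 CPM in replete cells (log2 fold change 0.95, SE 0.08, edgeR adjusted p = 1.76e-07). It was higher in every depleted library. KIFC2, a minus-end motor known from mouse neurons, had 4.03 to 5.84 CPM in depleted and 8.86 to 10.5 CPM in replete cells (log2 fold change −0.85, adjusted p = 0.00122). KIFC2 shares 791 exon bases with FOXH1 on the opposite strand, which fell by nearly as much (log2 fold change −0.84), so reads may be split between them. KIF13A, which carries recycling endosomes and melanosome cargo, had 10.8, 12.03 and 12.6 CPM in depleted cells, against 27.7, 26.4 and 24.5 CPM in replete cells (log2 fold change −0.93, SE 0.13, adjusted p = 1.54e-05). Each depleted library was below each replete one. KIF5C, a neuronal heavy chain of conventional kinesin, had 14, 8 and 6 counts in depleted libraries, against 26, 17 and 17 counts in replete libraries (log2 fold change −1.07, SE 0.33, adjusted p = 0.00964), and did not pass in DESeq2 (adjusted p = 0.0803).

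Ratios between close relatives were compared within each library, which removes the scaling between libraries. The count of KIF18A over that of KIF18B was 2.74, 2.79 and 3.41 in depleted libraries, against 0.1499, 0.208 and 0.172 in replete libraries, a difference of 4.08 in mean log2 ratio. For KIF3A over KIF3B the ratio was 0.0418, 0.0341 and 0.0605 in depleted libraries, against 0.307, 0.275 and 0.358 in replete libraries (difference −2.82). The ratio of KIF20A to KIF20B was 0.354, 0.437 and 0.372 in depleted libraries, against 0.938, 0.940 and 0.884 in replete libraries (difference −1.25). KIF1B over KIF1C gave 0.175, 0.172 and 0.142 in depleted libraries, against 0.134, 0.142 and 0.147 in replete libraries (difference 0.20). The first 3 ratios did not overlap between the groups and the last did. The exact two-sided permutation p was 0.1 for the first 3, the smallest that 3 libraries against 3 allow, and 0.3 for the last (0.133 and 0.3 after Benjamini-Hochberg adjustment over the 4 pairs). Pairs were chosen after the values were seen, and a permutation p under 0.05 could not be reached.

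**Figure D4:**
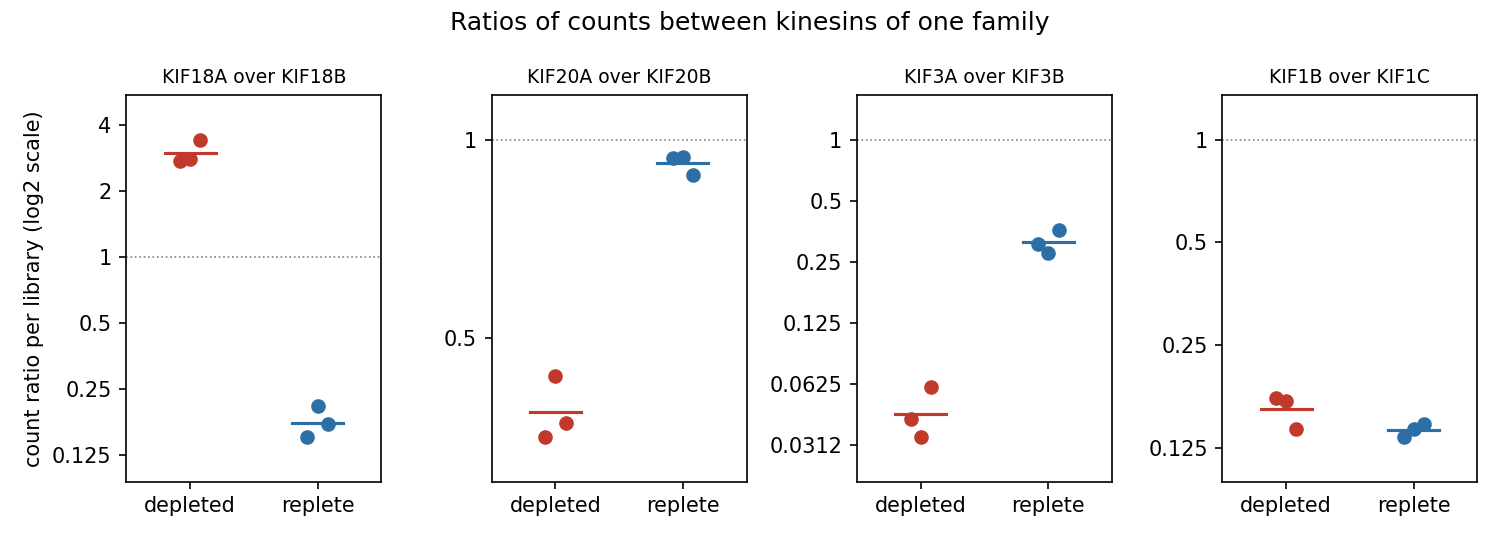
Ratio of the counts of related kinesins in each library (log2 scale, own range per panel), with points for the 3 depleted (red) and 3 replete (blue) libraries and a bar for the mean log2 ratio. KIF18A over KIF18B lies at 2.74 to 3.41 in depleted and at 0.1499 to 0.208 in replete libraries.

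Among kinesins outside the main classes, the largest fall was in KIF26A. KIF26A is an atypical kinesin without ATPase activity, known in mouse as a brake on growth factor signalling in enteric neurons. It had 14.5, 21.1 and 17.1 CPM in depleted cells, against 87.2, 91.9 and 98.3 CPM in replete cells (log2 fold change −2.18, SE 0.13, edgeR adjusted p = 4.72e-09). KIF7, the ciliary tip kinesin of Hedgehog signalling, was at 1.95 to 4.04 CPM in depleted and 7.97 to 11.3 CPM in replete cells (log2 fold change −1.43, adjusted p = 0.000139), with 589 exon bases shared with the opposite-strand gene TICRR, whose log2 fold change was −1.62. KIF27, a relative of KIF7, went the other way, with 47, 28 and 27 counts in depleted libraries, against 10, 22 and 11 counts in replete libraries (log2 fold change 1.24, SE 0.33, adjusted p = 0.00393). KIF27 passed the count filter through its depleted libraries, so it could be tested only as a rise. KIF9, known from motile cilia and sperm, had 34.7, 33.3 and 27.5 CPM in depleted cells, against 49.0, 53.2 and 44.5 CPM in replete cells (log2 fold change −0.39, SE 0.11, adjusted p = 0.00683), and it overlaps KLHL18 on the opposite strand (log2 fold change 1.00). KIF24, a depolymerase that restrains cilium formation, rose by 0.61 on the log2 scale (adjusted p = 0.00354), at 7.79 to 9.44 CPM in depleted and 6.36 to 6.76 CPM in replete cells. Its exons overlap those of UBAP1 on the opposite strand (log2 fold change 0.69). KIF21A, which slows microtubule growth at the cell cortex, had 214, 85.9 and 191 CPM in depleted cells, against 255, 238 and 234 CPM in replete cells (log2 fold change −0.34, SE 0.37, adjusted p = 0.437). Depleted replicate 2 was far below the other libraries, and without it the log2 fold change was −0.03 (adjusted p = 0.660).

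Partner genes were read against the shares over all genes, 39.1% higher and 39.4% lower, and no difference between lists was tested. Of 26 spindle and midzone partners tested, 5 rose, 19 fell and 2 did not pass (median log2 fold change −1.20). KNSTRN, a kinetochore protein, fell to 29.8 ± 1.57 CPM in depleted cells, against 236 ± 7.96 CPM in replete cells (mean ± SD, n = 3 per group). AURKB, the kinase of the chromosomal passenger complex that KIF20A moves, fell by 2.63 on the log2 scale, and TACC3, which crosslinks kinetochore fibres, fell by 1.77. CENPE, a kinetochore motor of the same superfamily under another name, fell by 0.36 (edgeR adjusted p = 0.0165), and RACGAP1, the partner of KIF23 in centralspindlin, fell by 0.38. The members with the smallest p among those that rose were ECT2, the furrow exchange factor that centralspindlin recruits (0.43), and the passenger subunits CDCA8 (0.44) and BIRC5 (0.35), and under library totals alone 0 of these 26 genes rose.

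Of 21 light chains and cargo adaptors tested, 11 rose, 5 fell and 5 did not pass (median log2 fold change 0.37), beside 39.1% higher and 39.4% lower over all genes. Under library totals alone, 8 rose and 7 fell. PLEKHM2 (SKIP), which links lysosomes to the kinesin light chains, rose to 83.4 ± 3.49 CPM in depleted cells, against 26.5 ± 0.859 CPM in replete cells (mean ± SD, n = 3 per group, log2 fold change 1.88, SE 0.09, edgeR adjusted p = 6.97e-10). KIDINS220, a membrane scaffold carried by conventional kinesin, rose by 2.08. KIAA1279, which encodes the KIF1-binding protein, fell by 1.69, and the mitochondrial kinesin receptors RHOT1 and RHOT2 (Miro) had log2 fold changes of −1.05 and −0.84. The mitochondrial linkers did not share a direction. TRAK2, a mitochondrial adaptor that binds the Miro receptors, rose by 0.61 (adjusted p = 2.82e-05), and its relative TRAK1 was at −0.03 (adjusted p = 0.909). FYCO1, an adaptor of late endosomes and autophagosomes, had a log2 fold change of −1.06, and the light chain KLC1 had one of −0.49.

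Cytoplasmic dynein, the opposing minus-end motor, was divided. Of 26 tested subunits and regulators, 13 rose, 7 fell and 6 did not pass (median log2 fold change 0.16), beside the same shares over all genes, and under library totals alone 10 rose and 9 fell. PAFAH1B1 (LIS1), which activates dynein, rose to 352 ± 27.2 CPM in depleted cells, against 89.2 ± 2.60 CPM in replete cells (log2 fold change 2.21), the light intermediate chain DYNC1LI2 rose by 1.43 and the light chain DYNLL1 by 0.79. The heavy chain DYNC1H1 fell to 1651 ± 127 CPM in depleted cells, against 3377 ± 51.8 CPM in replete cells (log2 fold change −0.81), and the adaptor BICD2 and the LIS1 partner NDE1 fell by 1.75 and 1.01.

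**Figure D5:**
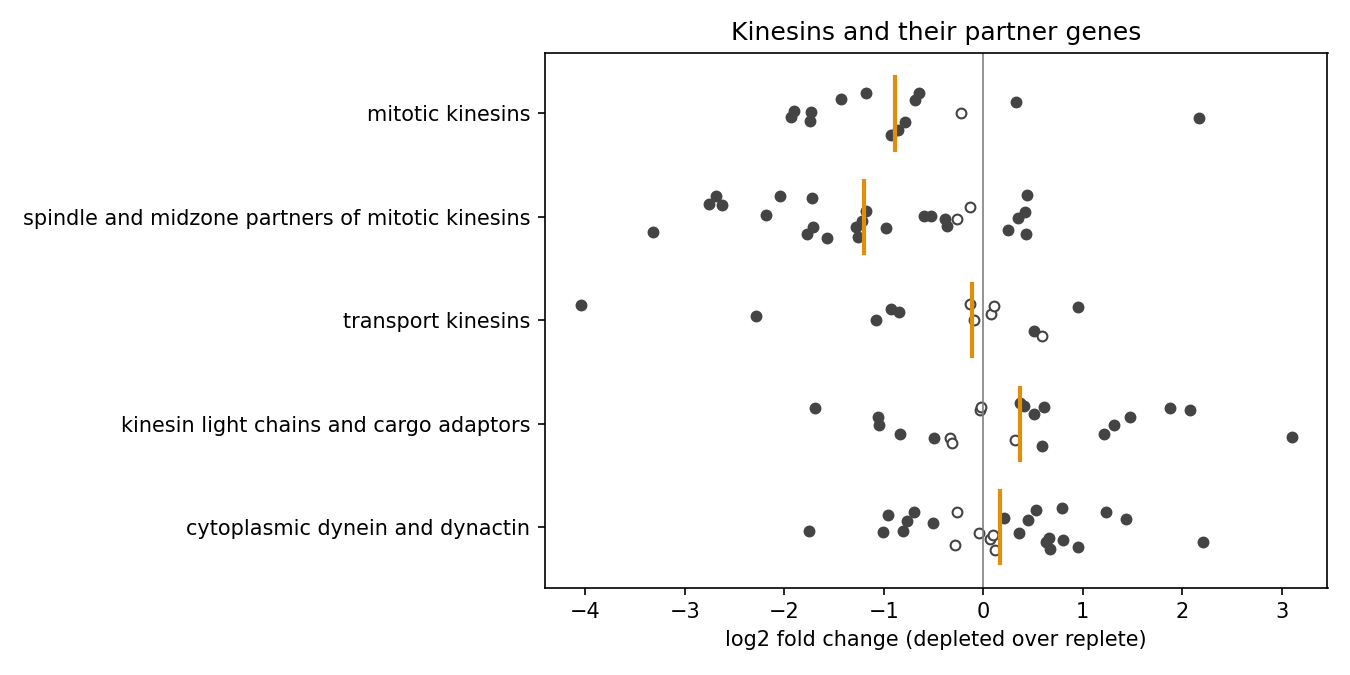
Log2 fold change (depleted over replete) of each tested gene in the mitotic and transport kinesin classes and in the 3 partner lists, filled where the adjusted p was under 0.05 and open where it was not, with the median of each list as a bar. Medians run from −1.20 for the spindle and midzone partners to 0.37 for the light chains and cargo adaptors.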

How the data were processed

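The authors deposited raw counts per gene symbol, 1 library per file, from QuantSeq 3′ mRNA libraries made with 500 ng of total RNA, per the labels. Bowtie2, edgeR and the build hg19 are named in the submitters' processing notes, without roles. The counting program, use of strand and annotation are not given in the sources used here. Entries of a repeated symbol (KIFC1 among 286 symbols) were summed. Genes were kept by filterByExpr (minimum count 10, minimum total 15), scaled by TMM and tested over the whole table in R 4.3.3 by edgeR 4.0.16, using robust quasi-likelihood fits (two-sided, Benjamini-Hochberg over 12739 genes, threshold 0.05), which was tested on simulated data. The simulation planted few changes and gave all genes and libraries the same spread, unlike these data. It does not check the scaling or the error rates here. A standard error is the log2 fold change over the root of F. Alternatives were other scalings and filters, DESeq2 1.42.0, fits without each library in turn, a replicate block and limma-voom (limma 3.58.1). GENCODE 29 on GRCh38 served for exon overlaps, and RefSeq (GRCh38.p14) for promoters. For no overlap was the place of the shared bases relative to the sampled 3′ ends checked. Every kinesin that passed the filter is named, and those with a mean of at least 10 CPM in a group have values per library. Of each partner list, the 3 called genes of lowest p on either side are named, except 1 that is not reported here, and KIFAP3, CENPE, RACGAP1, TRAK1, TRAK2, FYCO1 and KLC1 were added after their values were seen. Members, classes and lists were chosen with earlier results of these data known.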

Additional observations from a re-analysis of the deposited data

How the results depend on the processing

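Over 13 alternatives, 393 of 407 fold changes of single tested kinesins kept their direction and side of the threshold, 2 lost a call, 8 gained one and 4 changed sign, in genes without a call. KIF1B was at −0.15 under library totals alone and −0.021 with a mean of at least 10 CPM, and KIF16B was at −0.12 under library totals alone and −0.0059 without replete replicate 2 (up to 0.17 without replete replicate 1). Under library totals alone, 1 mitotic kinesin rose, the mitotic and transport medians were −1.12 and −0.34, and 0 spindle and midzone partners rose. With a mean of at least 10 CPM, 0 other kinesins rose, because KIF24 and KIF27 were not tested. Under the other scalings, filters and tests, and without any 1 library, counts of mitotic and transport kinesins in each direction stayed within 1.5 times those reported. Same-numbered libraries deviated together weakly (r = 0.132, 0.0108 and 0.0341, against −0.0959 to 0.0535 for different numbers). The labels state no pairing, and with 3 libraries per group these values cannot exclude it. With a replicate block, 4941 genes rose and 4999 fell, and 11 mitotic kinesins fell. Whether depth or absent expression kept 10 motor genes from being tested was not tested. Chosen after seeing the data, leaving out KIF3C and KIF5C gave 3 transport kinesins that fell and a median of −0.0047, and leaving out KIFC3 gave a ratio of transport sums of 0.811.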

Other observations

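Of the 10 motor genes with too few counts to test, KIF2B, KIF6 and KIF19 had no count in any library, and KIF12, KIF21B, KIF25 and KIF26B had at most 5 counts over all 6 libraries. KIF17, a relative of the ciliary kinesin-2 motors that also carries receptors in neurons, had 6, 6 and 4 counts in depleted libraries, against 1, 0 and 0 counts in replete libraries, a ratio of 13.8 with an exact 95% counting interval of 2.15 to 581. KIF1A, the neuronal carrier of synaptic vesicle precursors, had 2, 7 and 1 counts in depleted libraries, against 10, 10 and 12 counts in replete libraries, a ratio of 0.270 (0.119 to 0.564). KIF5A, a neuronal heavy chain, had 6 counts over the depleted and 8 over the replete libraries. The antisense transcript KIF9-AS1 had 11 counts over the depleted and 8 over the replete libraries, and KIF25-AS1 had 0. These intervals cover counting error only.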
